A study of Homo sapiens with 9 samples.

Results

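Mitochondrial ribosomal protein genes were lower in A549 cells with the LOC388942-ALK (LA) fusion than in control cells, at 46 of the 77 genes tested, where 9.94% of all genes were called lower. The count was 18 once length and GC content of the canonical transcript were corrected for, where 5.53% of all genes were called lower. It was 50, where 10.9% were, with the median length and mean GC content of a gene's transcripts, an alternative chosen after seeing the data. Single libraries also decided the count. The median log2 fold change of these genes was -1.27 as counted, -1.42 without LA replicate 1 and -1.12 without LA replicate 2. The members were the rows of the deposited count table whose symbol is MRPL or MRPS followed by a number and optionally A, B or C, together with DAP3, which gave 78 genes of 26364. Of these, 30 are MRPS genes or DAP3 and 48 are MRPL genes. Antisense and numbered pseudogene rows were left out, which removed the 4 rows MRPL23-AS1, MRPL42P5, MRPL45P2 and MRPS31P5.

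Mitochondria make a handful of respiratory chain proteins from their own genome on ribosomes of their own. The ribosomal RNAs of these ribosomes come from mitochondrial DNA, but every protein in them is encoded in the nucleus, made in the cytosol and imported. MRPS genes are named for the small subunit, which binds and decodes the mRNA, and MRPL genes for the large subunit, which joins the amino acids. Names and places do not always match, since the products of MRPS18A and MRPS30 sit in the large subunit, and MRPS36 is now known as KGD4, part of the oxoglutarate dehydrogenase complex.

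A549 is a human lung adenocarcinoma line. The 4 groups were unedited A549 cells, labelled WT and called control here (2 libraries), cells that received the guides sgLOC388942 and sgALK and carry the fusion (LA, 2 libraries), LA cells with the scramble guide sgScr (3 libraries) and LA cells with sgFOS (2 libraries). LA, sgScr and sgFOS cells thus share the fusion guides, which were delivered by lentivirus to a Cas9-expressing A549 line, and the fusion cells were grown from single cells, so that clone and fusion cannot be told apart. Which guide against FOS was used in which library is not stated in the labels, and separate cultures are not stated either, so that the p-values measure only the spread between these libraries.

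Libraries held 14507228 to 20456341 counts. FOS, a subunit of the AP-1 transcription factor, had 167 and 155 counts in control, 5448 and 1660 in LA, 4198, 4037 and 3528 in sgScr, and 1008 and 1113 in sgFOS. ALK had 0 counts in both control libraries and 1 to 15 counts in all other libraries but sgFOS replicate 2, where it had 0, which allows up to 3 counts. The epithelial markers EPCAM, KRT8, KRT18, KRT19 and CDH1 exceeded 1 count per 1000000 counts (CPM, with scaled library sizes) in every library, and the blood cell markers PTPRC and CD3E had 0 counts in all 9. The lung markers NKX2-1, SFTPB, SFTPC and SFTPD stayed below 1 CPM. NAPSA, another lung marker, had 4.39 and 1.24 CPM in control and 0.599 to 1.42 in the other groups. Of the markers of other cell types, CD68, COL1A1 and ACTA2 exceeded 1 CPM in every library, CD68 at 23.5 to 46.6 CPM. The sum of 10 epithelial and lung markers was 10367 to 17814 CPM in control, 5524 to 10371 in LA, 4699 to 5011 in sgScr and 5511 to 5675 in sgFOS, and that of 15 markers of other cell types 35.3 to 55.0, 43.4 to 47.1, 40.7 to 42.6 and 64.4 to 65.5 CPM. KRT8 and KRT18 made up most of the first sum. CDH1 went the other way, from 18.5 and 21.9 CPM in control to 98.9 and 101 in LA. It had 68.9 to 70.8 CPM in sgScr and 70.7 and 70.9 in sgFOS. EPCAM had 5.62 and 7.85 in control, 3.01 and 4.69 in LA, 9.48 to 13.1 in sgScr, 10.8 and 12.5 in sgFOS. The part of these markers in the results was not tested. Replicates differed by more than counting noise in every group, and far more in control and LA. Chi-square over degrees of freedom, over genes, was 125 in control and 58.1 in LA, and 1.74 to 2.65 in the other groups. Each fit used a single spread per gene for both of its groups. Where sgScr was set against control or LA, the p-values thus rest partly on the closer sgScr libraries and may be too small.

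Promoter windows show how these genes are built. RefSeq windows on GRCh38.p14, from 250 bases before to 50 bases after the start of a gene, were used for 69 of the 78 members. They were searched on both strands for short motifs. Windows on chromosome 8, where 3 members lie, were left out of the search and of all shares below. The ETS core CCGGAAG, the central part of sites bound by ETS-family factors such as GABPA, occurred in 28 of 69 members (40.6%), against 10.7% of all 27305 windows and 18.2% of the windows of genes tested in LA against control. The YY1 core ATGGCGG occurred in 23 members (33.3%), against 5.72% of all windows and 10.0% of those of tested genes. The NRF1 core CATGCGC occurred in 7 members (10.1%, against 4.67% of all windows and 7.38% of those of tested genes), and the E-box CACGTG in 6 (8.7%, against 7.43% and 10.0%). The TATA box letters TATAAA were present in 2 members (2.9%, against 11.95% and 5.59%). The letters TGANTCA, called AP-1 letters here, were present in 1 (1.45%, against 7.76% and 4.75%). N was searched as any base, and the shares were not split by that base. The match in the member, MRPS35, read TGATTCA. Matches of different motifs shared bases in 0 members, and a match is a description of the sequence only.

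Matches lay close to the gene start. Of 37 ETS matches in members, 26 (70.3%) lay within 50 bases of it, with a median at -22 bases, against 53.6% of the matches in tested genes. Of 24 YY1 matches, 20 (83.3%) did, with a median 14 bases downstream, where the motif can include the ATG of the coding sequence, and 67.4% of those in tested genes did.

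6 windows are printed because they carry the patterns that the results below return to. MRPL46 starts 320 bp from MRPS11 in the other direction, and MRPS34 has 3 ETS matches and a YY1 match. MRPL51 and MRPS12 were called in several comparisons. MRPL19 had the highest fold change of the members in LA against control, and MRPS35 was the member with a TGANTCA match. Each runs 5′ to 3′ on the strand of the gene, and capitals mark the ETS, YY1, NRF1 and AP-1 letters.
MRPL46 (GRCh38.p14 chr15:88467339-88467638, minus strand): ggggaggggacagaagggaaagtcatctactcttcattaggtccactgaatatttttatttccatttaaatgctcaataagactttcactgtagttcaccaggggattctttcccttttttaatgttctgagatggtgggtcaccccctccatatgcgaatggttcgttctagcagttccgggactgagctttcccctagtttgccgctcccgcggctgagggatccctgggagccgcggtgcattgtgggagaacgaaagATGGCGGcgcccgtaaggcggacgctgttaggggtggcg
MRPS34 (GRCh38.p14 chr16:1773085-1773384, minus strand): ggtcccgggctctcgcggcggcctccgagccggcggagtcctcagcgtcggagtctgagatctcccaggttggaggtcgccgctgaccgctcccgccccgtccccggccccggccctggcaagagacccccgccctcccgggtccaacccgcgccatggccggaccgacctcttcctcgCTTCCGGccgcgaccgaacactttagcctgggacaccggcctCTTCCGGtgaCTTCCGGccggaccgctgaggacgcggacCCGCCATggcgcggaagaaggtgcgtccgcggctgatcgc
MRPL51 (GRCh38.p14 chr12:6493213-6493512, minus strand): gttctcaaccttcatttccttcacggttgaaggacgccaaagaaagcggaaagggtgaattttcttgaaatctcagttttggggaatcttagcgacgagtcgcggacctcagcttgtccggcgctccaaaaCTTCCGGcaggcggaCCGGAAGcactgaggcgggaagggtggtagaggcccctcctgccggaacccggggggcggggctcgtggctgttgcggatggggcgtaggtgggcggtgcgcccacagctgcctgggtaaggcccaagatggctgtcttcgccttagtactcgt
MRPS12 (GRCh38.p14 chr19:38930694-38930993, plus strand): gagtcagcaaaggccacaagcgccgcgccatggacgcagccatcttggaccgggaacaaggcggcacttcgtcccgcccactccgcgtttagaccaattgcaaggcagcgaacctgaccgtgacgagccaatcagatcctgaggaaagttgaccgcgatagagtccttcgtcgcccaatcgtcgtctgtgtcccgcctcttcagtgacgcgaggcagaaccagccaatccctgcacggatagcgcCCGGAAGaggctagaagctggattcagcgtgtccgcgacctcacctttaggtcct
MRPL19 (GRCh38.p14 chr2:75646533-75646832, plus strand): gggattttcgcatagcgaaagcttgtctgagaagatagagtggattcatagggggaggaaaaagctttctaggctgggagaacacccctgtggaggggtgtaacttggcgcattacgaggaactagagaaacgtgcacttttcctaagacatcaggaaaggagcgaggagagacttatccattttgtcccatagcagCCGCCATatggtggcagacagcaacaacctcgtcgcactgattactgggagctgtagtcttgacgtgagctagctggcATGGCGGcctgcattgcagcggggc
MRPS35 (GRCh38.p14 chr12:27710582-27710881, plus strand): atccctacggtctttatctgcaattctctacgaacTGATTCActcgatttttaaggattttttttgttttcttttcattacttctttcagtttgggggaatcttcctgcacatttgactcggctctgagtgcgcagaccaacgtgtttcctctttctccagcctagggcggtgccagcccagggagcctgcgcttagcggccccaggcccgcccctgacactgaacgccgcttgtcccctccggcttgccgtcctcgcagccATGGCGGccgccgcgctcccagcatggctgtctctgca

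Members were expressed at moderate levels. The median member had 86.8 CPM in control, 35.6 in LA, 43.6 in sgScr and 43.9 in sgFOS, and together the members took 0.778% and 0.625% of all counts in control. The same share was 0.387% and 0.339% in LA, 0.430%, 0.429% and 0.435% in sgScr, and 0.430% and 0.427% in sgFOS. Both control libraries stood above all 7 libraries with the fusion guides, and both LA libraries stood below the other 7. In bulk samples, fewer cells with a transcript and less of it per cell cannot be told apart.

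**Figure D1:**
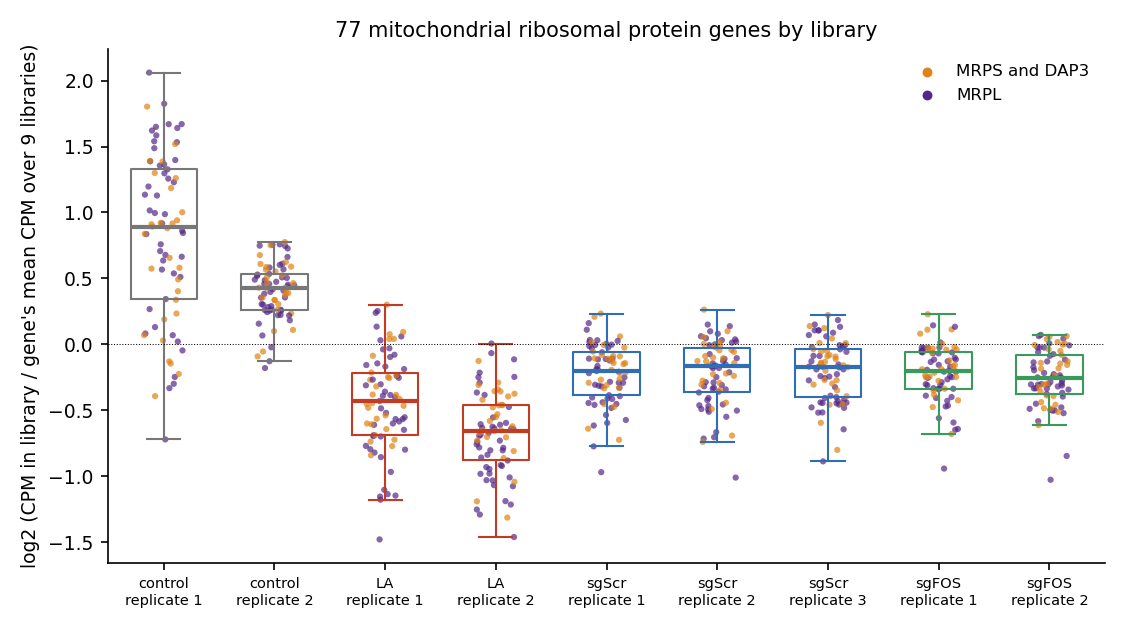
Level of each of the 77 members other than MRPS24 in each library, as log2 of its CPM over its own mean CPM across the 9 libraries (vertical axis), with a point per gene (orange MRPS and DAP3, purple MRPL) and a box for the quartiles and median in each library, the whiskers reaching the last point within 1.5 times the box. Points in both control libraries lie mostly above 0 and those in both LA libraries mostly below it, and control replicate 1 has the widest spread.

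Per kilobase of canonical transcript, and averaged over all libraries, the highest members were MRPL12 (226 CPM per kb), MRPS12 (192), MRPL23 (151), MRPS34 (139.6) and MRPL53 (127). MRPL12 belongs to the stalk of the large subunit, where translation factors dock, and MRPS12 to the decoding centre of the small subunit. The order depends on the transcript chosen, because MRPL51, sixth here, ranked 2 and MRPL53 ranked 12 with the median length of all annotated transcripts. At the low end stood MRPS33 (8.67 CPM per kb), MRPL42 (3.89) and MRPS18C (3.60). The canonical transcript of MRPL42 has 15557 bases, and the gene ranked 33 of 78 with the median length.

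MRPS24 was the member without a usable count. It had 1 count in LA replicate 1 and 0 in the other 8 libraries, and failed the expression filter in all comparisons. On GRCh37 it lies at chr7:43906157-43909492 on the minus strand, and the readthrough gene URGCP-MRPS24, which overlaps it on the same strand, was listed at 0 in all 9 libraries. Another 32 members overlap a gene of the table, 28 of the 33 on the other strand and 7 on the same strand, and whether the counting used strand is not stated. The pseudogene rows MRPL45P2, with 70 to 457 counts, and MRPS31P5, with 40 to 90, may share reads with MRPL45 and MRPS31.

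LA was compared with control first, to see what the fusion cells express differently. All 48 MRPL genes and 29 of the 30 MRPS genes and DAP3 were tested with edgeR's quasi-likelihood test across 14425 genes with Benjamini-Hochberg adjustment, as in all comparisons here, and a gene was called at an adjusted p below 0.05. Of the 77 members, 46 were called lower, where 9.94% of all genes tested were, and 0 were called higher, where 9.57% were. At an unadjusted p below 0.05, 0 members were higher as well, and DESeq2 called 0 higher and 52 lower. The median log2 fold change of members was -1.27, while that of all genes was 0.04, and 75 of 77 values were negative (48.3% of all genes) and 2 positive (51.7%). In 65 members both LA libraries lay below both control libraries, where 30.0% of all genes did, and in 0 they lay above, where 33.8% did. By symbol, the MRPL genes had a median of -1.34 with 33 of 48 called lower, and the MRPS genes with DAP3 -1.05 with 13 of 29, a difference that was not tested.

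These fold changes moved with transcript length. Over all genes tested, the log2 fold change rose with the length of the canonical transcript (Spearman's rho 0.58 across genes) and fell with GC content (-0.31), and over the 77 members rho was 0.54 and -0.59. Genes share libraries and are not independent replicates. Members are short, with a median transcript of 1315 bases against 3196 bases over all genes tested, and their median GC content was 48.0% against 48.9%. When a loess curve of length and GC content was removed in each library, 18 members were called lower (5.53% of all genes with a length) and 0 higher (5.62%), and their median was -0.53 against 0.03 over all genes. 15 members were called lower in both analyses, among them MRPL11, MRPL23, MRPL51, MRPL55, MRPS17 and MRPS33. With the median length and mean GC content of all annotated transcripts of a gene in place of the canonical one, an alternative chosen after seeing the data, 50 members were called lower, and the same 15 were among them.

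The share of members called lower was also set against all genes of like length. Among transcripts of up to 1000 bases, 22 of 24 members were called lower (91.7%, against 45.9% of all genes in the class), from 1000 to 2000 bases 17 of 34 (50%, against 22.8%), and above 2000 bases 7 of 19 (36.8%, against 3.08%). With the correction, the shares were 12.5% against 12.3% up to 1000 bases, 14.7% against 3.56% from 1000 to 2000 bases and 52.6% against 5.34% above. As counted, the share was above that of the class in all 3 classes, and with the correction in the 2 longer classes, while it was about equal up to 1000 bases. The classes rest on the canonical transcript. Some members above 2000 bases have a far shorter median annotated transcript, such as MRPS23 (5609 against 643) and MRPS33 (4210 against 688). In others, such as MRPL50 (3336 and 3336), the lengths are alike, and the part of the chosen transcript was not tested.

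**Figure D2:**
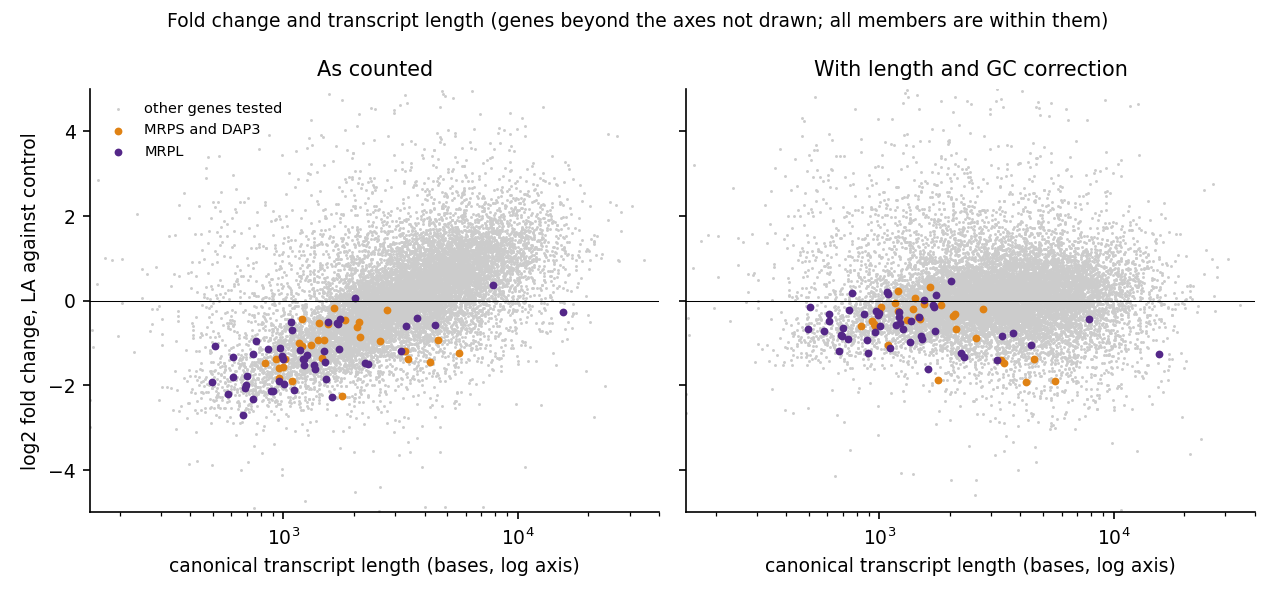
Log2 fold change in LA against control (vertical axis) by length of the canonical transcript in bases (horizontal axis, log scale), as counted (left) and with the length and GC correction (right), for members (orange MRPS and DAP3, purple MRPL) and other genes tested (grey), of which 111 and 108 lie beyond the axes. On the left the cloud rises with length and members lie at its short end and below 0. On the right the cloud rises less and the members' median is -0.53. A part of the rise remained with the correction. The median over all genes tested was -0.28 up to 1000 bases, -0.08 from 1000 to 2000 bases and 0.08 above.

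Libraries decided the count of calls. Without LA replicate 2, 0 members were called lower by edgeR, 23 at an unadjusted p below 0.05, and 68 genes in all were called lower (0.46%). Without LA replicate 1, 3 members were called and 95 genes (0.631%), without control replicate 1 27 members (4.24% of all genes), and without control replicate 2 55 (17.8%). The median of members stayed between -1.47 and -1.05 in these 4 fits. With the correction the count lay between 3 (without control replicate 1) and 32 (without control replicate 2), 10 without LA replicate 2, and the median between -0.70 and -0.38.

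Among large subunit members, MRPL23, on GRCh37 at chr11:1968508-2005752, had the lowest fold change. It had 425 and 143 CPM in control, 46.1 and 41.7 in LA, 52.1, 50.7 and 55.2 in sgScr, and 53.1 and 50.1 in sgFOS. Its log2 fold change in LA was -2.71 (SE 0.48, adjusted p = 0.00109 by edgeR), and -1.19 with the correction (adjusted p = 0.0228). The lowest control library held more than all libraries of the other groups, and the gap between the control libraries was itself larger than that between LA and sgScr. MRPL23-AS1 overlaps it on the other strand and had 1 to 30 counts.

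MRPL55, a large subunit protein, had 116 and 45.0 CPM in control and 14.9 and 17.4 in LA, a log2 fold change of -2.33 (SE 0.46, adjusted p = 0.00203), and -0.90 with the correction (adjusted p = 0.042). MRPL11, part of the base of the stalk, had 216 and 81.5 CPM in control and 37.6 and 24.7 in LA, a log2 fold change of -2.27 (SE 0.46, adjusted p = 0.00257), and -1.62 (adjusted p = 0.0238) with the correction. In both genes the groups did not overlap.

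MRPL12 had 682 and 297 CPM in control, 129 and 124 in LA, 163, 162 and 168 in sgScr, and 164 and 159 in sgFOS. The fold change in LA was -1.97 on the log2 scale (SE 0.45, adjusted p = 0.00448), and -0.59 (adjusted p = 0.157) with the correction. The counts separate control from all other libraries without overlap, but the call was lost with the length and GC correction. MRPL53, a short large subunit gene of 496 transcript bases, behaved likewise, at -1.92 (SE 0.44, adjusted p = 0.00425) and -0.67 (adjusted p = 0.0866).

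The members with the highest fold changes were MRPL19, MRPL49 and MRPS30. MRPL19 had 84.2 and 127 CPM in control, 165 and 113 in LA, 155, 153 and 152 in sgScr, and 152 and 146 in sgFOS. Its groups overlapped in LA against control, at 0.37 (SE 0.41, adjusted p = 0.55), and the sign turned with the correction, to -0.43 (adjusted p = 0.253), its transcript being 7825 bases long. MRPL49 had 47.0 and 58.3 CPM in control and 53.1 and 59.5 in LA, 0.07 on the log2 scale (SE 0.39, adjusted p = 0.927). MRPS30 was at -0.16 (adjusted p = 0.817).

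In the small subunit, MRPS17, a protein that binds the body of the subunit's RNA, had 97.2 and 38.5 CPM in control, 17.3 and 11.2 in LA, 16.9, 16.7 and 16.0 in sgScr, and 17.4 and 19.6 in sgFOS. Its log2 fold change was -2.26 (SE 0.47, adjusted p = 0.00278), and -1.87 (adjusted p = 0.0217) with the correction. The groups did not overlap, and NIPSNAP2 overlaps the gene on the same strand, so that reads may be shared.

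MRPS12 had 526 and 272 CPM in control, 111 and 117 in LA, 118, 114 and 122 in sgScr, and 137 and 136 in sgFOS. The log2 fold change in LA was -1.82 (SE 0.43, adjusted p = 0.00554), and -0.60 (adjusted p = 0.121) with the correction. Control lay above all other libraries, and the 2 sgFOS libraries lay above LA and sgScr.

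DAP3, a GTP-binding protein of the small subunit also known as MRPS29, had 113 and 117 CPM in control, 82.3 and 68.6 in LA, 103, 97.4 and 99.8 in sgScr, and 107 and 103 in sgFOS. The groups LA and control did not overlap, but the log2 fold change of -0.63 (SE 0.39, adjusted p = 0.265) did not pass the test. Of the 3 MRPS18 paralogs, MRPS18A stood at -0.99 (adjusted p = 0.0947), MRPS18B at -0.93 (adjusted p = 0.0929) and MRPS18C at -0.55 (adjusted p = 0.519), and MRPS18C was the lowest of them in level, at 4.78 and 9.56 CPM in control and 6.88 and 3.07 in LA.

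**Figure D3:**
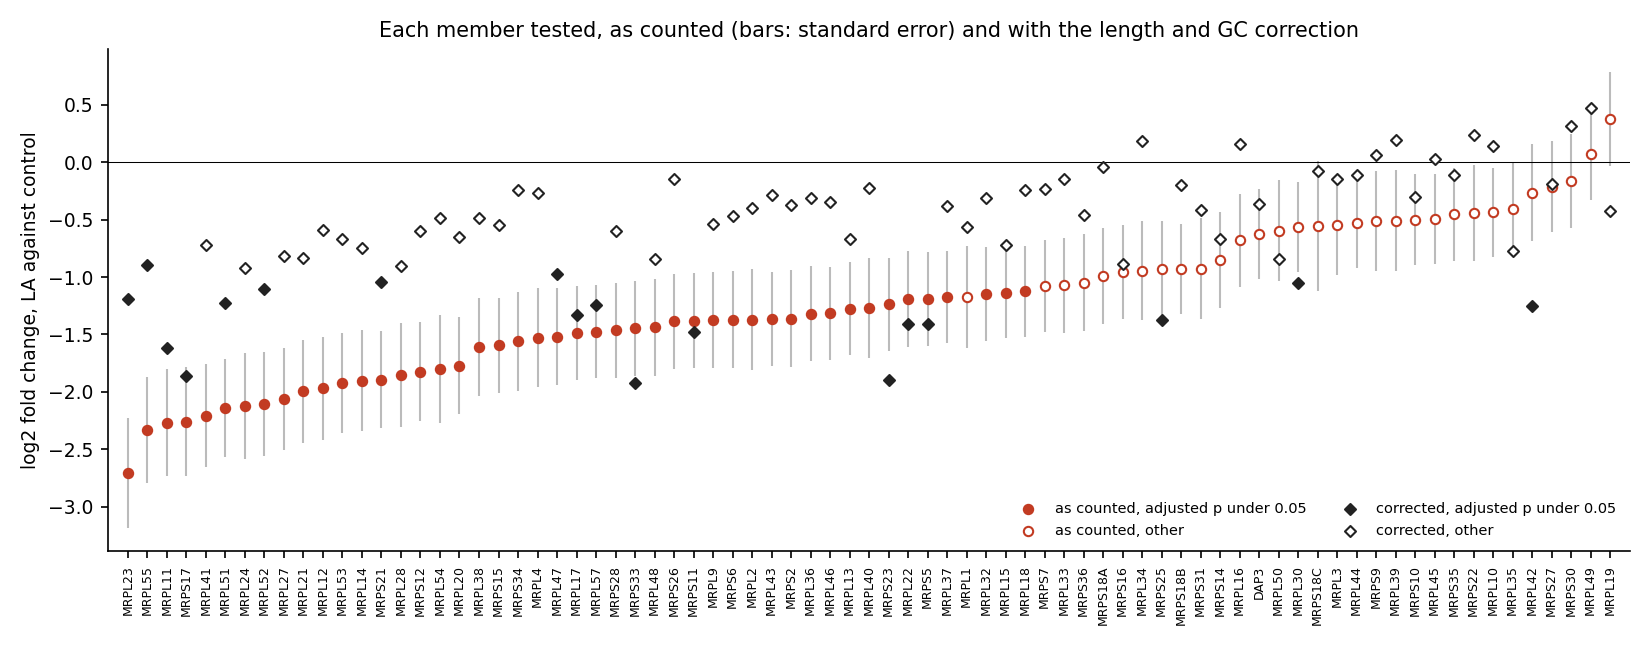
Log2 fold change of each of the 77 members tested in LA against control (vertical axis), ordered by value, as counted (red circles, bars of 1 standard error) and with the length and GC correction (black diamonds), filled where the adjusted p was below 0.05. The red circles run from -2.71 for MRPL23 to 0.37 for MRPL19, and most diamonds lie nearer to 0, while those of long transcripts such as MRPL42 and MRPS33 lie lower.

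Neighbouring genes that start close by in the other direction can share a promoter. Within 1000 bp of their start, 27 members have such a protein-coding gene. MRPL46 and MRPS11 are each other's neighbour, 320 bp apart, and were both called lower, at -1.32 (adjusted p = 0.0254) and -1.38 (adjusted p = 0.0217). MRPL46 had 77.9 and 60.0 CPM in control and 30.1 and 26.0 in LA, and MRPS11 had 158 and 89.0 against 52.2 and 43.7. With the correction MRPS11 remained called (-1.48, adjusted p = 0.0172) and MRPL46 did not (-0.35, adjusted p = 0.379), and the canonical transcripts differ in length.

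Of the 24 neighbours that are no members and were tested, 3 were called lower (PSMA2, FAU and C9orf116) and 0 higher by edgeR (2 higher at an unadjusted p below 0.05, 0 by DESeq2), with a median of -0.10 as counted and -0.11 with the correction. The 24 members beside them had a median of -1.22 as counted and -0.39 with the correction, and 15 were called lower. In 19 of 24 pairs the member had the lower fold change. The neighbours' median transcript was 2968 bases and the members' 1307 bases, so that length differs within the pairs, and its part was not tested. The exceptions included MRPL49, whose neighbour FAU, a fusion of a ubiquitin-like protein with a cytosolic ribosomal protein, was at -1.81 (adjusted p = 0.00583).

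**Figure D4:**
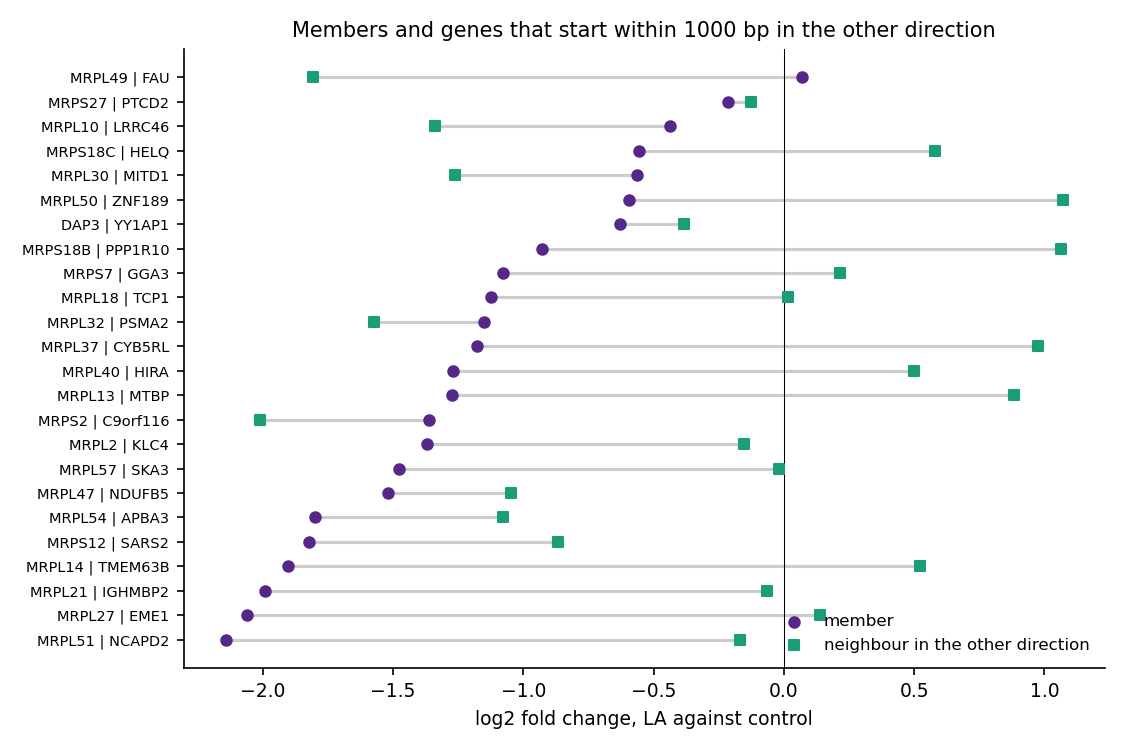
Log2 fold change in LA against control (horizontal axis) of 24 members (purple circles) and of the protein-coding gene that starts within 1000 bp in the other direction (green squares), a line joining each pair. The circle lies to the left of the square in 19 pairs, and the neighbours are scattered around their median of -0.10.

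Calls were found in members with and without an ETS match. Among members with a window that were tested, 18 of 28 with a match were called lower in LA against control (median -1.41) and 22 of 40 without (median -1.17). With a YY1 match 11 of 22 were called lower (median -1.16), and without 29 of 46 (median -1.37). MRPS35, the member with a TGANTCA match, had 138 and 198 CPM in control and 139 and 110.3 in LA, and stood at -0.45 (adjusted p = 0.448). These differences were not tested.

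Other genes of the mitochondrial translation system served as context, beside 9.94% of all genes called lower and 9.57% higher (5.53% and 5.62% with the correction). Of 5 mitochondrial ribosome proteins under other names, 4 were called lower in LA, led by GADD45GIP1 at -2.24 (adjusted p = 0.002), and 1 of the 5 with the correction, and PTCD3 stood at 0.21 (adjusted p = 0.767). Of 26 genes for assembly of the ribosome and modification of its RNA, 3 were called lower and 0 higher (median -0.68), namely YBEY (-1.82), MALSU1 (-1.55) and MTG1 (-1.36). The values of METTL15, the highest of them, were 0.41 and an adjusted p of 0.548. With the correction 4 of the 26 were called lower and 0 higher, at a median of -0.24.

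Of 15 translation factors, 0 were called by edgeR in either direction, 5 had an unadjusted p below 0.05 and DESeq2 called 3 lower, with a median of -0.44, from -1.22 for MTIF3, an initiation factor, to 0.79 for GFM1, an elongation factor. Of 20 enzymes that load mitochondrial tRNAs, 0 were called, 2 had an unadjusted p below 0.05 and DESeq2 called 1 lower, with a median of -0.23, from -1.21 for FARS2 to 1.10 for MARS2. SLIRP (-1.83, adjusted p = 0.00512) and HSD17B10 were the 2 of 16 genes of mitochondrial transcription and RNA processing that were called lower, at a list median of -0.01. With the correction 0 of the 16 were called lower and 1 higher, at a median of -0.26, SLIRP standing at -0.89 (adjusted p = 0.0515) and HSD17B10 at -0.49 (adjusted p = 0.192). Of 8 tested regulators of mitochondrial biogenesis, 0 were called by edgeR or DESeq2 and 0 had an unadjusted p below 0.05, NRF1 being lowest at -0.48 and PPARGC1B highest at 0.89. With the correction 1 of the 15 translation factors was called lower and 0 higher. Of the 20 tRNA-loading enzymes and the 8 regulators, 0 were called with it. How these lists differ from the members was not tested.

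Cytosolic ribosomal protein genes and respiratory chain subunits were lower as well. Beside them, 9.94% of all genes tested were called lower as counted and 5.53% with the correction. Of 78 cytosolic ribosomal protein genes, 74 were called lower (median -2.10), and 55 with the correction (median -1.21). Of 76 nuclear-encoded respiratory chain subunits, 60 were called lower (median -1.70), and 33 with the correction (median -0.84). Their median transcripts were 827 and 830.5 bases.

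sgScr was compared with control next. These share the control libraries with the comparison above, so that values are set side by side and not counted as further evidence. Of 77 members, 52 were called lower (21.7% of all genes tested) and 0 higher (19.8%), with 2 higher at an unadjusted p below 0.05 and 0 higher by DESeq2. The median was -0.83, with 74 values negative (49.2% of all genes) and 3 positive (50.8%), and in 64 members all sgScr libraries lay below both control libraries (33.3% of all genes), in 3 above (35.9%). With the correction, 35 were called lower (17.9%) and 2 higher (19.1%), MRPS26 and MRPS27, and the median was -0.32. MRPS26 had 154 and 86.0 CPM in control and 74.5, 73.4 and 82.8 in sgScr. As counted it was thus lower in sgScr, and its call as higher came only with the correction. MRPS26 was chosen after its values were seen.

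The 3 lowest members were MRPL23 at -2.41 (SE 0.41, adjusted p = 0.00968), MRPS17 at -2.01 (SE 0.36, adjusted p = 0.0105) and MRPL55 at -1.93 (SE 0.37, adjusted p = 0.0123), against -2.71, -2.26 and -2.33 in LA. The 3 highest were MRPL19 at 0.54 (adjusted p = 0.0846), MRPS27 at 0.46 (adjusted p = 0.0661) and MRPL49 at 0.25 (adjusted p = 0.26). With the correction MRPL19 turned to -0.28 and was called lower (adjusted p = 0.0369). MRPS27, a member of the pentatricopeptide repeat family, had 95.0 and 120.0 CPM in control, 105 and 83.4 in LA, 146, 149.6 and 145 in sgScr, and 146 and 130.2 in sgFOS, so that all 5 libraries with sgScr or sgFOS lay above control and LA. Leaving out any of the 3 sgScr libraries left 0 members called by edgeR, with 46 to 48 lower at an unadjusted p below 0.05, and 0 to 13 genes called lower in all. Leaving out control replicate 1 gave 71 called lower, where 32.4% of all genes were, and control replicate 2 gave 62, where 37.8% were.

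sgScr was then compared with LA, which differ in the scramble guide and not in the fusion guides, and each group is also part of another comparison. Whether the groups were prepared together is not stated in the labels, so that guide and preparation cannot be told apart. Replicates were also far less alike in LA than in sgScr (chi-square over degrees of freedom 58.1 against 1.76 to 2.65). The fit assumed the same spread in both groups, which limits the p-values below. Of 77 members, 20 were called higher (10.6% of all genes tested) and 0 lower (12.3%), with 0 lower at an unadjusted p below 0.05 and 0 lower by DESeq2, which called 22 higher. The median was 0.31, 69 of 77 values were positive (48.5% of all genes) and 8 negative (51.5%), and in 49 members all sgScr libraries lay above both LA libraries (29.5% of all genes), in 1 below (27.2%). Length moved little with this comparison (rho -0.10 over all genes and -0.09 over members), and with the correction 21 were called higher (15.1%) and 0 lower (14.1%), 18 of them called in both, with a median of 0.22.

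MRPL24, a large subunit protein near the exit of the peptide tunnel, led the members. It had 28.6 and 35.0 CPM in LA and 73.9, 73.0 and 83.1 in sgScr, against 204 and 70.4 in control and 76.0 and 72.9 in sgFOS. The log2 fold change was 1.25 (SE 0.13, adjusted p = 0.00341), and 1.11 (adjusted p = 0.00259) with the correction. sgScr and LA did not overlap, and sgScr reached the level of control replicate 2.

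MRPL51, also a large subunit gene, had 281 and 149.9 CPM in control, 50.5 and 48.4 in LA, 98.4, 99.0 and 103 in sgScr, and 89.1 and 90.0 in sgFOS. It was higher in sgScr than in LA by 1.00 on the log2 scale (SE 0.08, adjusted p = 0.00211), and its level in sgFOS lay between those of LA and sgScr. In this gene the 4 groups did not overlap. MRPL22, which lines the peptide tunnel, had 23.9 and 19.6 CPM in LA and 37.8, 36.0 and 34.5 in sgScr, at 0.71 (SE 0.12, adjusted p = 0.0138).

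At the other end, MRPL57, formerly called MRP63, stood at -0.13 (adjusted p = 0.479), MRPL43 at -0.07 (adjusted p = 0.696) and MRPS2 at -0.07 (adjusted p = 0.597). DAP3 was called higher, at 0.39 (SE 0.10, adjusted p = 0.0453), as were MRPS18A at 0.53 (SE 0.13, adjusted p = 0.0328) and MRPS18B at 0.38 (SE 0.08, adjusted p = 0.0263). MRPS18C was at 0.03 (adjusted p = 0.961).

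The count of calls moved with single libraries here too. Leaving out LA replicate 1 gave 61 members called higher and 1 lower, where 32.4% and 32.7% of all genes were, and LA replicate 2 gave 36 and 5, where 25.2% and 25.9% were. Leaving out any sgScr library gave 2 and 0, where 1.18% to 1.55% and 1.51% to 2.16% were. With all 9 libraries in a single fit, 4 were called higher. In the context lists, beside the 10.6% of all genes called higher, 55 of 77 cytosolic ribosomal protein genes and 39 of 75 respiratory chain subunits were called higher, and 0 and 2 lower. Of 20 tRNA-loading enzymes 5 were called higher and 0 lower, of 26 assembly genes 3 and 0, of 15 translation factors 1 and 2 (MTRF1 and GUF1, named after their values were seen), of 16 transcription and RNA processing genes 1 and 0, of 5 ribosome proteins under other names 1 and 0, and of 8 regulators 0 and 0, with 2 of the regulators at an unadjusted p below 0.05.

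sgFOS was compared with sgScr last, to see what follows when FOS is targeted in fusion cells. Of 77 members, 3 were called higher (12.2% of all genes tested) and 4 lower (10.5%), which is 3.90% and 5.19% of the members. The median was -0.02, and values ran from -0.31 to 0.22, with 36 positive (49.8% of all genes) and 41 negative (50.2%). In 9 members both sgFOS libraries lay above all 3 sgScr libraries (24.0% of all genes) and in 18 below (24.5%). With the correction 4 were called higher (11.1%) and 1 lower (9.8%), and MRPS12, MRPS23 and MRPL10 were called in both.

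MRPS12 rose from 118, 114 and 122 CPM in sgScr to 137 and 136 in sgFOS, without overlap, by 0.22 on the log2 scale (SE 0.04, adjusted p = 0.000104), and by 0.19 with the correction (adjusted p = 0.000416). MRPL38, a large subunit protein with a fold related to lipid-binding proteins, was at 0.15 (SE 0.05, adjusted p = 0.0212), and MRPS23 at 0.14 (SE 0.05, adjusted p = 0.0315). MRPL54 and MRPS17, among the 3 highest members, were each at 0.16 and did not pass the test (adjusted p = 0.363 and 0.225).

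MRPS31 had 17.5, 18.5 and 16.6 CPM in sgScr and 15.1 and 13.2 in sgFOS, a log2 fold change of -0.31 (SE 0.10, adjusted p = 0.024), and -0.24 (adjusted p = 0.087) with the correction. MRPL51 was lower by the same test at -0.15 (SE 0.04, adjusted p = 0.00805), from 98.4, 99.0 and 103 CPM to 89.1 and 90.0, and -0.10 (adjusted p = 0.101) with the correction. MRPL10 (-0.14, adjusted p = 0.0445) and MRPS35 (-0.11, adjusted p = 0.0459) were the other 2 called lower, and were named after their values were seen. In each of these 4 genes both sgFOS libraries lay below all sgScr libraries. MRPL48 (-0.18, adjusted p = 0.123) and MRPS6 (-0.17, adjusted p = 0.309) had larger differences than the last 3 of these and did not pass the test.

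These calls were small and depended on the settings. DESeq2 called 1 member higher and 0 lower, and a single fit of all 9 libraries called 0 members and 0 of 14849 genes, with 0 members at an unadjusted p below 0.05. Without sgFOS replicate 2, 1 member was called higher and 0 lower (7.75% and 6.23% of all genes), and without sgFOS replicate 1, 1 and 2 (6.95% and 6.08%). Without sgScr replicate 1 or 2, the counts were 1 and 5 (10.7% and 9.3%), and 2 and 1 (9.74% and 7.51%). Of 8 regulators, 3 were called lower and 1 higher as counted. With the correction 3 were called lower and 0 higher, and the highest value was 0.063. The genes called as counted were GABPA, the DNA-binding part of an ETS-family factor, at -0.28 (SE 0.07, adjusted p = 0.00228), YY1 at -0.17 (SE 0.05, adjusted p = 0.00603), MYC at -0.13 (adjusted p = 0.0132) and PPRC1 at 0.14 (adjusted p = 0.0112). The call of PPRC1 as higher was thus lost with the correction. Of the other context lists, 1 of 26 assembly genes and 1 of 16 transcription and RNA processing genes were called higher and 0 lower, and 1 of 15 translation factors, 2 of 20 tRNA-loading enzymes and 1 of 5 ribosome proteins under other names were called lower and 0 higher. Cytosolic ribosomal protein genes had 4 called higher and 6 lower of 77, and respiratory chain subunits 3 and 4 of 75.

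**Figure D5:**
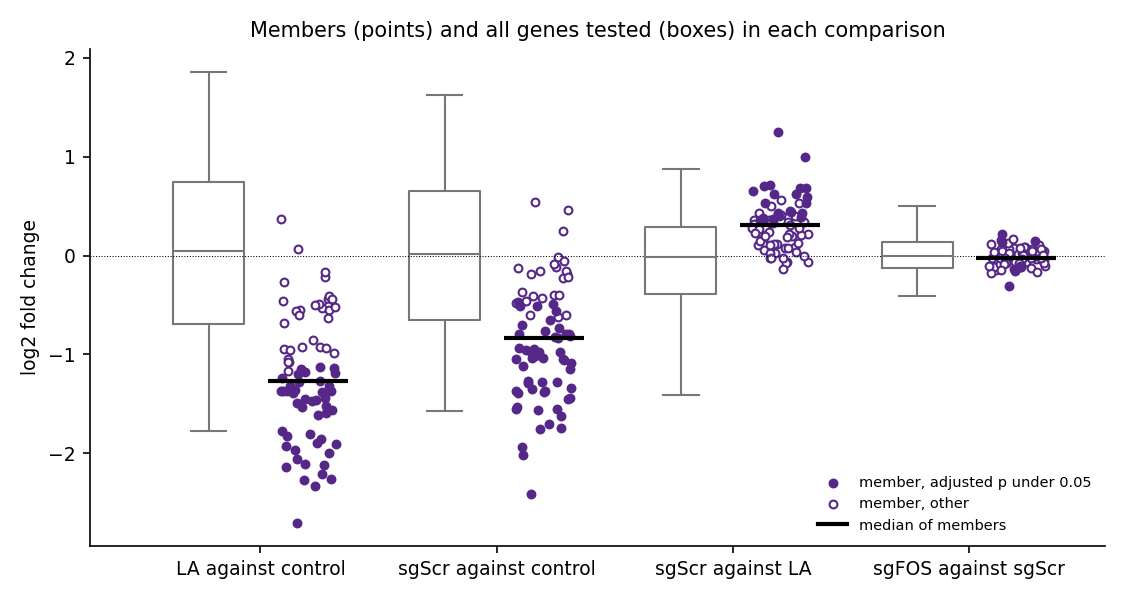
Log2 fold change (vertical axis) of the 77 members (points, filled where the adjusted p was below 0.05, with the median as a bar) beside all genes tested (boxes of the quartiles with whiskers from the 5th to the 95th percentile) in the 4 comparisons. Members lie below the boxes' medians in LA and sgScr against control, with medians of -1.27 and -0.83, above them in sgScr against LA at 0.31, and at about 0 in sgFOS against sgScr.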

How the data were processed

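Stranded mRNA libraries of 9 A549 samples were sequenced in pairs, per the study's methods, and aligned to hg19 with STAR 2.7.10b, per the submitters' processing notes, which also name DESeq2 1.26.0. The deposited values are whole-number read counts for each gene, not normalized. How reads were counted (program, annotation, strand) is not given in the sources used here. Libraries held 14507228 to 20456341 counts, and limits from a count of 0 (3 counts) cover counting error only, since reads carry no molecular identifiers.

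Counts were tested in R 4.3.3 with edgeR 4.0.16 (TMM normalization, filterByExpr, two-sided quasi-likelihood test, Benjamini-Hochberg adjustment over all genes tested) on the libraries of each of 4 comparisons. CPM used TMM-scaled library sizes. GENCODE v44 lifted to GRCh37, with the Ensembl canonical transcript, gave gene lengths, GC content and positions. The correction was a loess curve (span 0.5) of length and GC content in each library, entered as an offset. Alternatives were DESeq2 1.42.0, its size factors, library size alone, no filter, all 9 libraries, the replicate number as a block, the study's threshold (an absolute log2 fold change above 0.5 and a p below 0.05) and leaving out each library. Procedures were also run on simulated counts in which both groups of a comparison had the same spread. Since the groups here differ in spread, these runs cannot check the p-values of sgScr against control or LA.

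The members and lists were chosen with earlier results of these data known. Members named singly were the 3 highest and 3 lowest in each comparison, those called against the members' median, the 5 highest and 3 lowest per kilobase, DAP3, the MRPS18 paralogs, MRPS12, MRPL12 and MRPS24. In other lists the lowest and highest gene were named. Some genes of these lists are not reported here. MRPL46, MRPS11, MRPS30, MRPS35, MRPL10, MRPS26, the called genes of short lists and the neighbouring genes were named after their values were seen. Promoter windows came from RefSeq on GRCh38.p14, without chromosome 8, and no coordinate was moved between builds.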

Additional observations from a re-analysis of the deposited data

How the results depend on the processing

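The direction of the members' median held under every alternative run in LA against control, sgScr against control and sgScr against LA, while the counts of calls moved. In LA against control, library size alone gave 20 called lower at a median of -0.95, and the length and GC correction gave 18 and -0.53. With the correction and a library left out, an alternative chosen after seeing the data, the counts were 3 to 32 and the medians -0.70 to -0.38. In sgScr against control, the median was -0.64 with library size alone and -0.32 with the correction. Members called higher there numbered 2 with the correction, 1 with all 9 libraries, 1 with the median transcript and 1 with the threshold of the study's methods. Leaving out a library gave 0 to 5 called higher, 0 to 71 lower and medians of -1.03 to -0.63, and with the correction as well 0 to 17, 9 to 51 and -0.36 to -0.22. In sgScr against LA, all 9 libraries gave 4 called higher and the study's threshold 13. Leaving out a library gave 2 to 61 called higher, 0 to 5 lower and medians of 0.20 to 0.44, and with the correction as well 3 to 55, 0 to 3 and 0.16 to 0.37. In sgFOS against sgScr, DESeq2 gave 1 called higher and 0 lower, all 9 libraries and the study's threshold 0 and 0, and 1 was called lower with the correction and 2 with the median transcript. Leaving out a library gave 1 to 3 called higher, 0 to 5 lower and medians of -0.042 to 0.0098, and with the correction as well 1 to 4, 0 to 1 and -0.017 to 0.023. In LA against control, leaving out a library gave 0 to 55 called lower and medians of -1.47 to -1.05. The causes were not tested, except that leaving out a library leaves fewer samples. Where 1 library of a group is left, it is assumed to vary like the other group.

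Replicate numbers did not pair the libraries. The correlation of deviations of same-numbered libraries from their group means was -0.216 in LA against control, -0.0335 and -0.00982 in sgScr against LA, 0.0583 and 0.0257 in sgScr against control, and -0.119 and 0.00904 in sgFOS against sgScr. With the replicate number as a block, members called lower numbered 19 in LA against control and 29 in sgScr against control, 2 were called higher in sgScr against LA, and 2 were called lower in sgFOS against sgScr at a median of 0.010. With the block and the correction, the counts were 23 lower (median -0.55), 16 lower (median -0.34), 6 higher (median 0.20) and 0 lower (median 0.022). With crossed numbers as the block, an alternative added after seeing the data, 52 members were called lower in LA against control.

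Among single members, some called values changed sign. In sgScr against control with the correction, MRPL19 was at -0.28, MRPS18B at 0.10 and MRPS34 at 0.044. MRPS26, lower in sgScr as counted, was called higher there. Over the fits that leave out a library, with and without the correction, MRPL19 ran from -0.36 to 0.87, MRPL24 from -1.40 to 0.62, MRPL42 from -1.19 to 0.26, MRPS18A from -0.47 to 0.88, MRPS18B from -0.54 to 0.27 and MRPS34 from -1.82 to 0.094, and in sgScr against LA MRPL19 ran from -0.13 to 0.43 and MRPL42 from -0.25 to 0.47. With the replicate block and the correction in sgScr against control, MRPS18B was at 0.13 and MRPS34 at 0.00285. MRPS18C had 55 to 162 counts and MRPS24 0 or 1, and the part of depth in the calls was not tested.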
